A study of Mus musculus with 36 samples.

Results

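Wild-type SP natural killer (NK) cells were compared with wild-type TP NK cells, 3 libraries against 3, among the 36 RNA-seq libraries of mouse NK cells in the series. The members were taken by their sort labels and genotype, with no measured value used. All 6 libraries came from splenic CD27-CD11b+ NK cells, a mature subset, of C57BL/6 (B6) mice labelled WT (B2m+/+). TP cells were sorted as Ly49C+Ly49I+NKG2A+ and SP cells as Ly49C-Ly49I+NKG2A-, so that both carried Ly49I and only TP cells carried the other two receptors. The table of sorted subsets holds 18 libraries, and 12 further libraries of it were used for reference: TN cells (Ly49C-Ly49I-NKG2A-) of WT mice, and TP, SP and TN cells of B2m-/- mice (KO), 3 libraries each. KO mice lack the light chain of MHC class I in all tissues. The age and sex of the mice, and whether mice were pooled for a library, are not given in the sources used here. The labels call the 3 libraries of a group biological replicates, and all 18 carry 1 batch date.

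Ly49 receptors, encoded by the Klra genes, and NKG2A, encoded by Klrc1, are lectin-like receptors on NK cells. Ly49C and Ly49I bind classical MHC class I molecules, and NKG2A pairs with CD94 (Klrd1) to bind Qa-1, and all 3 carry inhibitory motifs in their cytoplasmic tails. Each NK cell transcribes a subset of these genes, and cells whose inhibitory receptors meet self MHC class I respond more strongly to activation, a process called education or licensing. The comparison asks what else differs in mature NK cells when Ly49C and NKG2A are absent and Ly49I is kept, in mice with normal MHC class I.

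Of the 23 genes that differed, 13 lie in a run of neighbouring genes on chromosome 6, and 6 start regions of this run, which form 3 pairs of near copies, are shown for comparison with the values that follow. Each run is the 150 bases upstream of the RefSeq transcription start (build GRCm38.p6, minus strand, 5′ to 3′). In the Ly49 windows, capitals mark the longest word that all 4 share, and in the Klrc windows they mark the bases at which Klrc2 and Klrc3 differ. Klra3 (Ly49C) and Klra9 (Ly49I) are genes of the sort, Klra4 and Klra8 encode the activating receptors Ly49D and Ly49H, and Klrc2 and Klrc3 encode NKG2C and NKG2E.
Klra3, chr6:130337627-130337776: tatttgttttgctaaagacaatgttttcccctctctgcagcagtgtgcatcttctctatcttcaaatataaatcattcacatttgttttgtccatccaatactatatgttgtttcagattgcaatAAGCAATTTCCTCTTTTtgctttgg
Klra9, chr6:130193113-130193262: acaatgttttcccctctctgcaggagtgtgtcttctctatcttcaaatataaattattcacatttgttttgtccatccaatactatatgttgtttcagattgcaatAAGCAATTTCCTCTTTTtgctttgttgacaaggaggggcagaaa
Klra4, chr6:130067272-130067421: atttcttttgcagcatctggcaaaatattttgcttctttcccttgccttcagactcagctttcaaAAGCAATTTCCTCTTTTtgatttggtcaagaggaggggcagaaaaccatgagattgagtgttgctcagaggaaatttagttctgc
Klra8, chr6:130129899-130130048: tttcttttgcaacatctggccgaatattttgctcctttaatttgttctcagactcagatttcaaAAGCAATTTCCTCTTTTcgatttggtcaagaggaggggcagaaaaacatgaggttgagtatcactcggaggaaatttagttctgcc
Klrc2, chr6:129660557-129660706: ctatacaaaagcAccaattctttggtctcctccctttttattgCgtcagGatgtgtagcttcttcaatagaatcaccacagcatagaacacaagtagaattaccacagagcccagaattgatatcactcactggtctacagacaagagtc
Klrc3, chr6:129643289-129643438: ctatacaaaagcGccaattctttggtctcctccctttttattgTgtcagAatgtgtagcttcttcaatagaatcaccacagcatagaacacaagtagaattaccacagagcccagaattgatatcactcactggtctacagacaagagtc
Over 300 bases around the start, identity was 85% between Klra3 and Klra9, 86% between Klra4 and Klra8, and 98.3% between Klrc2 and Klrc3, which differed at 3 of the 150 bases shown. For a gene with several starts, the window with the highest identity to its pair was used. This choice favours high values for the 3 pairs. Klrc1 and Klrc2 were 44.3% identical, within the range between the Klra and the Klrc windows (39.8% to 46%). The word AAGCAATTTCCTCTTTT, searched on both strands of the 250 bases before each start, was in 8 of 32851 RefSeq windows (0.0244%). Those windows belong to 7 genes, of which 6 are Ly49 genes: Klra3, Klra4, Klra6, Klra8, Klra9 and Klra17. The match is a description of letters. The word was chosen as shared by Klra3, Klra9, Klra4 and Klra8, so its presence in these 4 was set in advance. Beyond them it was in Klra6, which rose, in Klra17, which was not tested, and in Gm52487. Klra9 holds the word and was not among the 23 genes that differed. Klra1, Klra7, Klra10 and Klra13-ps rose and are not among the 7 genes, though some of them may lack a window. RefSeq windows were found for 18 of the 23 genes called below.

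Values are TPM, a unit that divides reads by gene length, sets all libraries to a common total and carries no record of depth, so no counting error can be given. Genes above 0 numbered 12425 to 14320 in the TP libraries and 12290 to 13418 in the SP libraries. Pearson correlations of log2 values were 0.912 to 0.953 within a group and 0.902 to 0.949 between SP and TP libraries. Values for single libraries are given in the order 1 to 3. A difference is SP minus TP on the log2(TPM + 1) scale, which understates changes of low genes, with its standard error (SE). Calls are genes whose adjusted p was under 0.05 in limma (Benjamini-Hochberg over 12018 genes), a moderated linear model with 1 mean for each of the 6 groups. For 1 gene alone, the smallest p that exact permutation of 3 against 3 libraries allows is 0.1. The mitochondrial gene ND4L was at 0 in TP library 2 and between 854 and 981 TPM in the other 5 libraries, so a 0 in this table may be a failed estimate.

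The sorted receptors followed their labels. Klra3 (Ly49C, ENSMUSG00000067591) was at 245, 214 and 193 TPM in TP and 2.87, 0.18 and 1.16 TPM in SP cells, a difference of -6.66 ± 0.41. Klrc1 (NKG2A, ENSMUSG00000030167) was at 868, 871 and 853 TPM in TP and 21.0, 26.2 and 29.1 TPM in SP cells, a difference of -5.04 ± 0.23. These values describe the sort, and no result rests on them. Klra9 (Ly49I), carried by both subsets, averaged 963 ± 100.3 TPM in TP and 928 ± 109 TPM in SP cells (SD, n = 3). Its difference was -0.05, with a 95% interval from -0.32 to 0.21, and the groups overlapped. The other genes of the gate and genotype were not called either: Cd27 had means of 97.3 and 117 TPM in TP and SP cells, Itgam (CD11b) 664 and 642 TPM, and B2m 3312 and 3215 TPM. Klrd1, which encodes the CD94 partner of NKG2A, was at 1342, 1299 and 1256 TPM in TP and 1530, 1287 and 1389 TPM in SP cells, with overlapping groups.

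In all, 23 of 12018 genes were called (0.191%), 14 higher in SP (0.116%) and 9 lower (0.0749%), while 927 genes had an unadjusted p under 0.05. Klra3 and Klrc1 of the sort are among the 9, which leaves 21 genes that the sort did not fix. Of the 23, 14 differed by 2-fold or more, 7 in each direction. In all 23 the SP and TP libraries did not overlap, against 10.6% of all tested genes (5.19% higher, 5.37% lower). The genes were called on these same libraries, so their separation follows largely from the call and adds no support. Of the called genes, 13 lie in a run of neighbouring genes on chromosome 6, the NK complex from Klrb1a to Klra1. The run holds 76 genes in RefSeq order, of which 38 were tested, and 10 of its called genes were higher and 3 lower in SP cells. Toward its Klra end, 12 of the 22 tested genes from Klrc3 to Klra1 were called, among them Klra3 and Klrc1 of the sort. The 22 also hold small nuclear RNA genes at 0 in WT TP and SP cells, such as Gm22621. Before Klrc3, 1 of 16 was called, Klrb1b. Outside the run 10 genes were called, 4 higher and 6 lower.

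**Figure D1:**
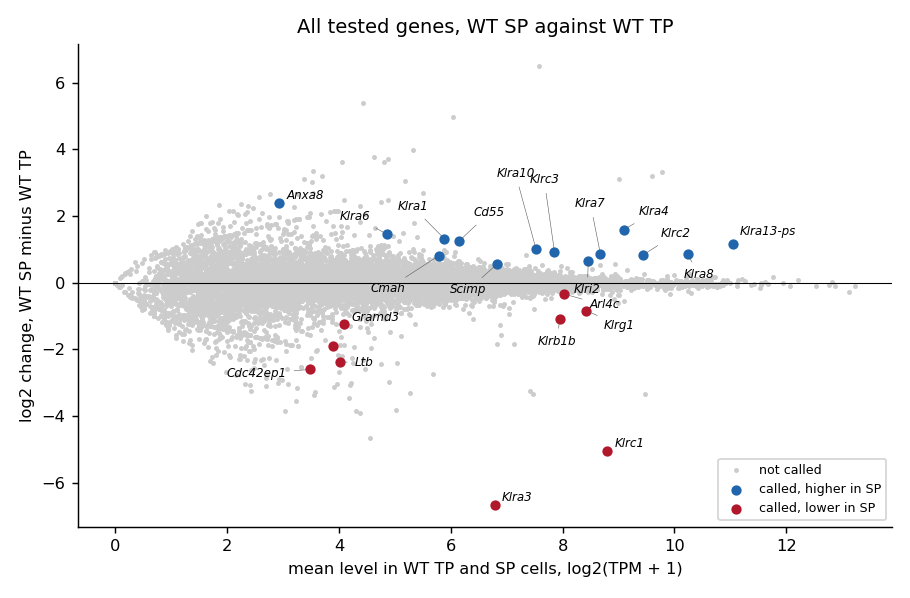
Each point is 1 of 12018 tested genes, with its mean level in WT TP and SP cells on the x axis, log2(TPM + 1), and the difference of SP minus TP on the y axis. The 14 genes called higher in SP (blue) include 7 Ly49 genes, and the 9 called lower (red) include Klra3 and Klrc1 of the sort at the bottom.

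Ly49 receptor genes other than the sorted pair were higher in SP than in TP cells. Of 9 such genes tested, 7 rose, none fell, and Klra5 and Klra14-ps were not called. Their median difference was 1.01, beside -2.5e-05 over all tested genes, and the 7 that rose gained between 0.85 and 1.59 on the log2 scale. Klra2 and Klra17, also Ly49 genes, were below the mean of 1 TPM needed for testing.

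Klra4 (ENSMUSG00000079852), which encodes the activating receptor Ly49D, was at 277, 258 and 277 TPM in TP and 894.5, 693 and 881 TPM in SP cells. The lowest SP library stood well above the highest TP library. The difference was 1.59 ± 0.13, a 3.01-fold rise (limma adjusted p = 2.38e-06). Klra8 encodes Ly49H, the activating receptor for a protein of mouse cytomegalovirus. It was at 1006, 756 and 827 TPM in TP and 1632, 1378 and 1628 TPM in SP cells, a difference of 0.85 ± 0.14 (adjusted p = 0.0103, limma). The Klra8 call was lost without TP library 2 or 3 or SP library 1 or 3, with adjusted p from 0.0609 to 0.085. Both receptors signal through DAP12 (Tyrobp), whose own level was not called.

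Inhibitory Ly49 receptors moved the same way. Klra7 (Ly49G) was at 307, 271 and 291 TPM in TP and 537, 559 and 483 TPM in SP cells, a difference of 0.86 ± 0.09 (limma adjusted p = 6.46e-05). Klra1 (Ly49A) was at 31.1, 38.1 and 29.1 TPM in TP and 99.4, 68.4 and 82.6 TPM in SP cells, a difference of 1.32 ± 0.18 (limma adjusted p = 0.00136). Groups were apart for both genes. Klra6 (Ly49F) was low throughout, at 17.5, 8.69 and 16.9 TPM in TP and 55.1, 24.1 and 45.7 TPM in SP cells, a difference of 1.45 ± 0.28 (limma adjusted p = 0.0396). Its call was lost without any 1 library other than SP library 2, with adjusted p from 0.0609 to 0.233. Klra10 (Ly49J) averaged 122 TPM in TP and 244 TPM in SP cells, a difference of 1.01 ± 0.15 (limma adjusted p = 0.0031).

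A transcribed pseudogene, Klra13-ps (ENSMUSG00000030178), had the highest level of the called genes. It was at 1399, 1203 and 1324 TPM in TP and 3027, 2740 and 2937 TPM in SP cells, a difference of 1.15 ± 0.08 and a 2.22-fold rise (limma adjusted p = 2.59e-07). The other tested Ly49 pseudogene of the list, Klra14-ps, averaged 412 TPM in TP and 415 TPM in SP cells and the groups overlapped. Klra5 (Ly49E) was at 9.81, 23.8 and 17.0 TPM in TP and 12.4, 16.9 and 25.0 TPM in SP cells, also overlapping. Outside the list, Klra11-ps, noted after its values were seen, ran from 1.12 to 5.84 TPM in TP and from 8.36 to 15.7 TPM in SP cells and was not called (limma adjusted p = 0.229).

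Reads of near copies limit how far these genes can be told apart. The share of each gene's 50-base words found in another gene's transcripts (GENCODE M21, GRCm38) was 39.8% for Klra10, 33.1% for Klra8, 31.5% for Klra9 and 20.7% for Klra3. It was 13.7% for Klra13-ps, all with Klra7, and 12.3% for Klra7, and below 5% for Klra4, Klra1 and Klra6. Klrc1 shared 38.6% of its words, Klrc3 36.3% and Klrc2 16.3%. Values of the genes with large shares are uncertain to the extent that the authors' quantification moved reads between copies. In a bulk library, a higher share of cells that carry a receptor and more RNA per carrying cell cannot be told apart.

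**Figure D2:**
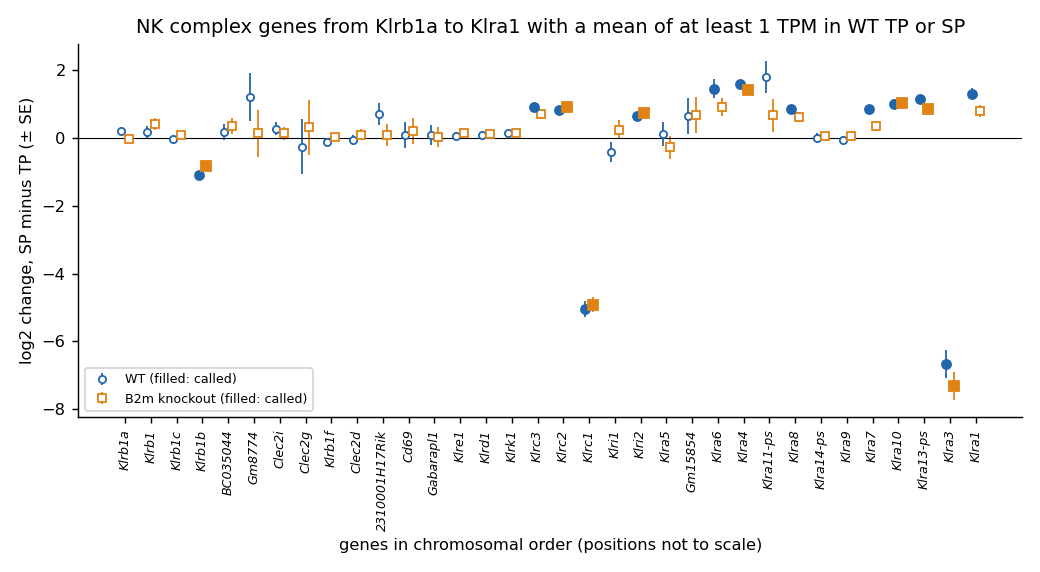
Differences of SP minus TP on the log2(TPM + 1) scale (± SE) for genes of the NK complex in chromosomal order, for those with a mean of at least 1 TPM in WT TP or SP cells. WT (blue circles) and KO (orange squares) are shown side by side, filled where called, with Klrc1 and Klra3 of the sort far below 0 and the called genes between Klrc3 and Klra1 mostly above it.

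Beside Klrc1, both other tested Klrc genes rose in SP cells. Klrc2 (NKG2C) was at 548, 480 and 467 TPM in TP and 941, 834 and 877 TPM in SP cells, a difference of 0.83 ± 0.09 (limma adjusted p = 6.46e-05). Klrc3 (NKG2E) was at 193, 121 and 162 TPM in TP and 275, 374 and 258 TPM in SP cells, a difference of 0.93 ± 0.15 (limma adjusted p = 0.00825). NKG2C is an activating partner of CD94, so the 3 Klrc products share a partner whose transcript was not called. Klri2, which encodes a receptor subunit that pairs with KLRE1, rose from 274, 285 and 259 TPM to 453, 413 and 424 TPM, a difference of 0.65 ± 0.07 (limma adjusted p = 6.46e-05). Its neighbour Klri1 was at 37.6, 20.2 and 30.7 TPM in TP and 25.3, 26.8 and 14.2 TPM in SP cells and overlapped.

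Of the lectin-like receptors, 2 besides Klrc1 fell. Klrb1b, an inhibitory receptor of the NKR-P1 family, was at 308, 314 and 385 TPM in TP and 163, 151 and 153 TPM in SP cells, a difference of -1.10 ± 0.11 (limma adjusted p = 4.92e-05). It shared 27.2% of its words with other genes. Klrg1, an inhibitory receptor for cadherins that marks mature NK cells, lies outside the run. It was at 454, 460 and 397 TPM in TP and 298, 218 and 223 TPM in SP cells, a difference of -0.84 ± 0.14 (limma adjusted p = 0.0104). The Klrg1 call was lost without TP library 1 or 2 or SP library 2 or 3, with adjusted p from 0.0705 to 0.087. Over the 16 lectin-like genes other than Klrc1, 3 rose, 2 fell and 11 were not called, with a median of 0.10. Among the 11, Klrk1 (NKG2D) averaged 1596 TPM in TP and 1784 TPM in SP cells.

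**Figure D3:**
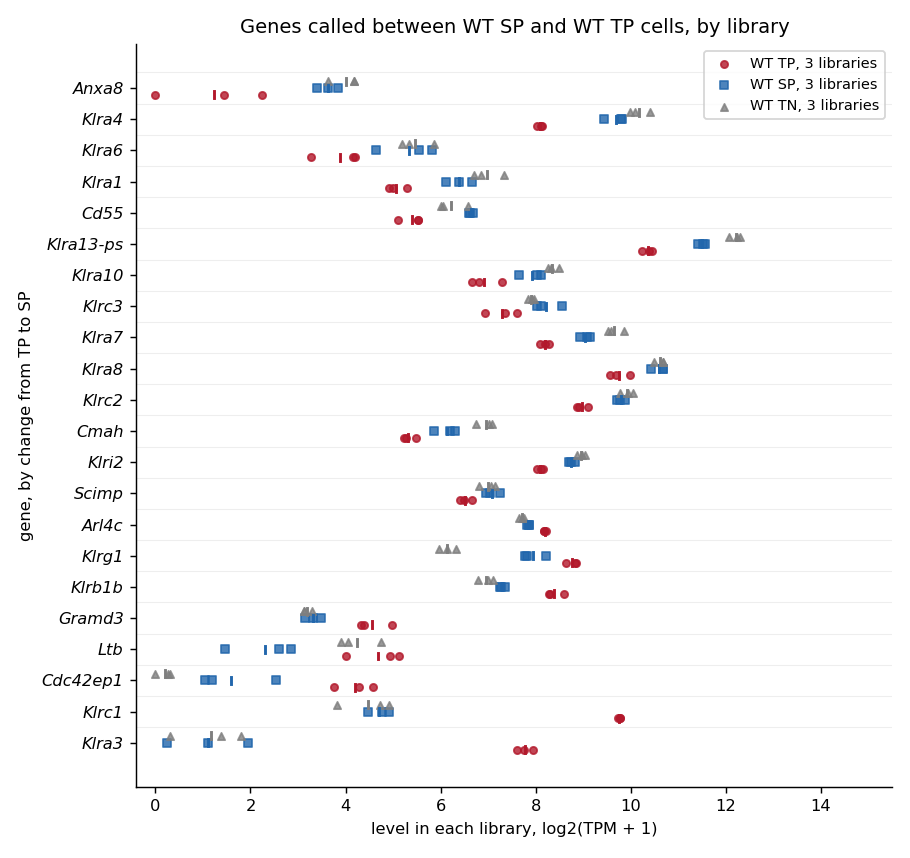
Levels of 22 of the 23 called genes, log2(TPM + 1), in each WT library, with vertical bars at group means and genes ordered by their difference between SP and TP. TP (red circles) and SP (blue squares) libraries are apart in every row; TN libraries (grey triangles) lie near SP for Klrc1 and Klra3 and beyond SP for Klra13-ps and Klrg1.

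Outside these receptors, the genes that rose were few. Cd55, which protects cells from complement by speeding the decay of its convertases, was at 45.2, 33.5 and 45.3 TPM in TP and 96.3, 101.6 and 97.3 TPM in SP cells. All 3 SP libraries were above all TP libraries, with a difference of 1.25 ± 0.15 and a 2.37-fold rise (limma adjusted p = 0.000477). Cmah, which makes N-glycolylneuraminic acid, a sialic acid of cell surfaces, was at 37.3, 43.3 and 36.4 TPM in TP and 78.0, 72.7 and 57.5 TPM in SP cells, a difference of 0.81 ± 0.14 (limma adjusted p = 0.0151). Without TP library 1 or 3 or SP library 1 or 2 its adjusted p was 0.0801 to 0.0994. Scimp, a transmembrane adaptor of immune signalling, averaged 90.9 ± 8.4 TPM in TP and 135 ± 14.7 TPM in SP cells (SD, n = 3), a difference of 0.56 ± 0.11 (limma adjusted p = 0.0323). Its adjusted p was 0.0769 to 0.147 without TP library 1 or 3 or SP library 2 or 3. Anxa8, a calcium-dependent membrane-binding annexin, was at 3.72, 0 and 1.73 TPM in TP and 11.4, 13.3 and 9.47 TPM in SP cells, a difference of 2.39 ± 0.42 (limma adjusted p = 0.0157). Its adjusted p was 0.0544 to 0.0857 without TP library 3 or any 1 SP library.

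Of the genes that fell outside the NK complex, 4 fell by more than 2-fold, among them Ltb, Cdc42ep1 and Gramd3. Ltb, the membrane subunit of lymphotoxin, was at 15.2, 33.8 and 29.4 TPM in TP and 6.25, 5.1 and 1.75 TPM in SP cells. The groups were apart, with a difference of -2.38 ± 0.38 (limma adjusted p = 0.00824), and the adjusted p was 0.0632 without TP library 2 and 0.0547 without TP library 3. Cdc42ep1, an effector of the GTPase CDC42, was at 18.5, 22.8 and 12.4 TPM in TP and 4.83, 1.29 and 1.07 TPM in SP cells, a difference of -2.60 ± 0.43 (limma adjusted p = 0.0103). Its adjusted p was 0.0572 to 0.084 without TP library 1 or 2 or SP library 2 or 3. Gramd3, a GRAM-domain protein, was at 19.9, 19.0 and 30.3 TPM in TP and 10.1, 8.88 and 7.85 TPM in SP cells, a difference of -1.25 ± 0.20 (limma adjusted p = 0.00882). It was at 0.0553 without TP library 3 and 0.0531 without SP library 3. Arl4c, a small GTPase of the ARF family, moved least, from 290 ± 5.78 TPM in TP to 229 ± 2.98 TPM in SP cells (SD, n = 3), a difference of -0.34 ± 0.06 (limma adjusted p = 0.0375). Leaving out any 1 of the 6 libraries took its adjusted p to 0.0841 or above, up to 0.132.

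Which genes were called outside the receptor families, and how many, depended on single libraries of both subsets. Of the 23 calls, 12 were neither Klra nor Klrc genes, and this number was 7 without TP library 1. Outside the NK complex run, 10 were called, 5 without TP library 1 and 6 without TP library 3. These counts can include genes that are not among the 23. Anxa8, Arl4c, Cdc42ep1, Klrg1 and Scimp lost the call without SP library 2 and also without SP library 3. With only the 6 compared libraries in the model, 8 genes were called, of which 4 were among the 23: Klrc1, Klra3, Klra13-ps and Klra4. These 4 were called under all 14 alternatives tried, and the other 19 lost the call under at least 1. A further 9 genes lost it only in the fit of the 6 libraries, where fewer samples estimate the spread, among them Klra1, Klra7, Klra10, Klrb1b, Klrc2, Klrc3, Klri2 and Cd55.

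Summed markers of other cell types were far below those of NK cells in all 6 libraries, and some sums were higher in TP. Summed monocyte and macrophage markers (8 genes) were 11.6 to 15.0 TPM in TP and 0 to 2.14 TPM in SP cells, mostly through Lyz2, at 5.87, 14.1 and 11.3 TPM against 1.0, 0 and 0.71 TPM. Marco was at 0 in all 6. B cell markers (6 genes) summed to 4.2 to 6.06 TPM in TP and 1.47 to 3.3 TPM in SP cells, and dendritic cell markers (6 genes) to 7.1 to 14.0 and 4.19 to 6.77 TPM, with Clec9a at 0 throughout. Markers of innate lymphoid cells other than NK cells (8 genes) summed to 83.8 to 107 and 66.8 to 71.9 TPM, mostly Gata3, and markers of dividing cells (6 genes) to 110 to 121 and 61.8 to 92.7 TPM. These 5 lists moved with the genes lower in SP, such as Ltb and Gramd3, and their part in those results was not tested. T cell markers (7 in the table) overlapped, at 3.35 to 4.96 and 0 to 13.1 TPM, as did red cell and platelet markers, at 1.66 to 14.0 and 1.16 to 23.4 TPM. Neutrophil markers were at 0 in TP and 0 to 1.11 TPM in SP cells, with 7 of 8 at 0 in all 6 libraries. Plasma cell markers, mostly Ighm, were 164 to 177 and 179 to 189 TPM, higher in every SP library. NK cell markers (8 genes, among them Ncr1 and Nkg7) were 19949 to 21084 and 19080 to 20614 TPM. The markers of the labelled cell type were thus high in both subsets. Limma called none of the 37 marker genes tested. Of these 37, 10 had an unadjusted p under 0.05, a larger share than the 7.71% of all tested genes. Among the 10, 2 were higher and 8 lower in SP cells.

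Genes of NK cell killing were not among those called. Of 27 effector molecules tested limma called none, 7 had an unadjusted p under 0.05 (25.9%, beside 7.71% of all tested genes), and the median difference was 0.03. Gzma, the granule protease granzyme A, averaged 9967 TPM in TP and 9360 TPM in SP cells, and Prf1 (perforin) was at 1599, 1572 and 1460 TPM against 1559, 1536 and 1344 TPM. Ifng was at 51.5, 43.8 and 60.7 TPM in TP and 54.2, 58.1 and 53.3 TPM in SP cells, with a difference of 0.10 and a 95% interval from -0.26 to 0.45. The chemokine Ccl3 came nearest to the threshold, at 170, 168 and 146 TPM in TP and 223, 246 and 229 TPM in SP cells, a difference of 0.53 ± 0.12 (limma adjusted p = 0.0971). Ccl5, at 9819 ± 301 TPM in TP and 8106 ± 544 TPM in SP cells (SD, n = 3), and Serpinb9b, at 49.1 and 74.0 TPM, were also apart between groups and not called.

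The lists of receptors and signalling proteins outside the NK complex gave no call. Klrg1 and Scimp, called above, are not in these lists. Limma called none of 18 activating receptors and adaptors (median -0.05, 3 with an unadjusted p under 0.05) and none of 28 proximal signalling proteins and phosphatases (median 0.03, 3 such). It called none of 10 inhibitory and checkpoint receptors (median -0.22, 1 such) and none of 29 cytokine receptor and JAK-STAT genes (median -0.00435, 1 such). Cd226 encodes the activating receptor DNAM-1. It was at 133, 108 and 69.8 TPM in TP and 60.5, 59.7 and 41.4 TPM in SP cells, with groups apart and a difference of -0.90 ± 0.24 (limma adjusted p = 0.229). Tigit, which competes with DNAM-1 for ligands, was at 11.1, 5.83 and 7.12 TPM in TP and 25.4, 14.0 and 28.5 TPM in SP cells, a difference of 1.38 ± 0.34 (limma adjusted p = 0.181). Neither passed the test, and their 95% intervals, -1.41 to -0.40 and 0.65 to 2.10, do not show equal levels. Ncr1 (NKp46) averaged 2306 TPM in TP and 2129 TPM in SP cells. Among signalling genes, Vav2 was at 19.1 and 8.35 TPM, Txk at 422 and 365 TPM and Fyn at 601 and 665 TPM.

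Maturation markers and lineage factors held 1 call among 35 genes, Ltb, with a median of -0.05. An unadjusted p under 0.05 was seen for 10 of them (28.6%), 2 higher and 8 lower in SP cells. Eomes, a T-box factor of NK cell identity, was at 330.5, 314 and 312 TPM in TP and 431, 418 and 413 TPM in SP cells, a difference of 0.40 ± 0.08 that missed the threshold (limma adjusted p = 0.064). Id2, needed for NK cell development, was at 1075, 1049 and 1109 TPM in TP and 893, 815 and 836 TPM in SP cells, a difference of -0.35 ± 0.07 (limma adjusted p = 0.0821). Il7r, the interleukin-7 receptor, was at 3.84, 4.45 and 5.67 TPM in TP and 0, 0 and 0.17 TPM in SP cells, a difference of -2.41 ± 0.51 (limma adjusted p = 0.0813), and it was called in KO cells (-2.69, limma adjusted p = 0.0373). All 3 genes were apart between groups in every library. Among 15 homing receptors and integrins limma called none (median -0.04, 2 with an unadjusted p under 0.05). Those were Itgax (CD11c), with means of 493 and 641 TPM in TP and SP cells, and Itgb7, with 647 and 444 TPM.

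Immediate-early genes are induced soon after receptor signalling, and some of them, such as Egr1 and Nr4a1, were measured at low levels. Limma called none of the 21 immediate-early genes tested, 3 had an unadjusted p under 0.05, and the median difference of the 21 was 0.22. Egr1 was at 6.74, 6.09 and 3.54 TPM in TP and 17.7, 19.3 and 13.1 TPM in SP cells, a difference of 1.48 ± 0.37 (limma adjusted p = 0.181). Nr4a1 was at 12.7, 7.11 and 10.7 TPM in TP and 22.9, 26.2 and 20.1 TPM in SP cells, a difference of 1.14 ± 0.30 (limma adjusted p = 0.229). Both genes were apart between groups, as were Dusp1 and Nr4a3, so that 4 of 21 were higher in every SP library, against 5.19% of all tested genes. In KO cells, Egr1 averaged 3.94 TPM in TP and 2.51 TPM in SP cells, and Nr4a1 9.15 and 7.33 TPM, and the list's median was -0.01. The genotypes differed by 1.87 ± 0.52 for Egr1 (limma adjusted p = 0.867) and by 1.37 ± 0.42 for Nr4a1 (limma adjusted p = 1).

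Housekeeping machinery showed no call. Limma called none of 85 ribosomal protein genes (median -0.03, 4 with an unadjusted p under 0.05), and Rpl35, the nearest, was at 173, 182 and 155 TPM in TP and 75.1, 76.5 and 120 TPM in SP cells (limma adjusted p = 0.064). It called none of 99 oxidative phosphorylation genes (median -0.07, 8 such), with Ndufs3 at 135 and 80.3 TPM. The other genes next to the threshold were of mixed kinds. Abtb2, an ankyrin-repeat and BTB protein (0.93, limma adjusted p = 0.055), Cntrob, a centriole protein (1.10), and Cyp17a1, a steroid hydroxylase (1.10), were higher in SP. Dtx1, a Deltex regulator of Notch signalling, was lower, at 26.0, 28.3 and 19.1 TPM in TP and 6.22, 5.45 and 5.82 TPM in SP cells (-1.88, limma adjusted p = 0.064). Kcnj8, a potassium channel subunit (-0.77), Ifi204, an interferon-induced gene (-2.17), and Iglc2, an immunoglobulin light chain (-2.78), were lower too.

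**Figure D4:**
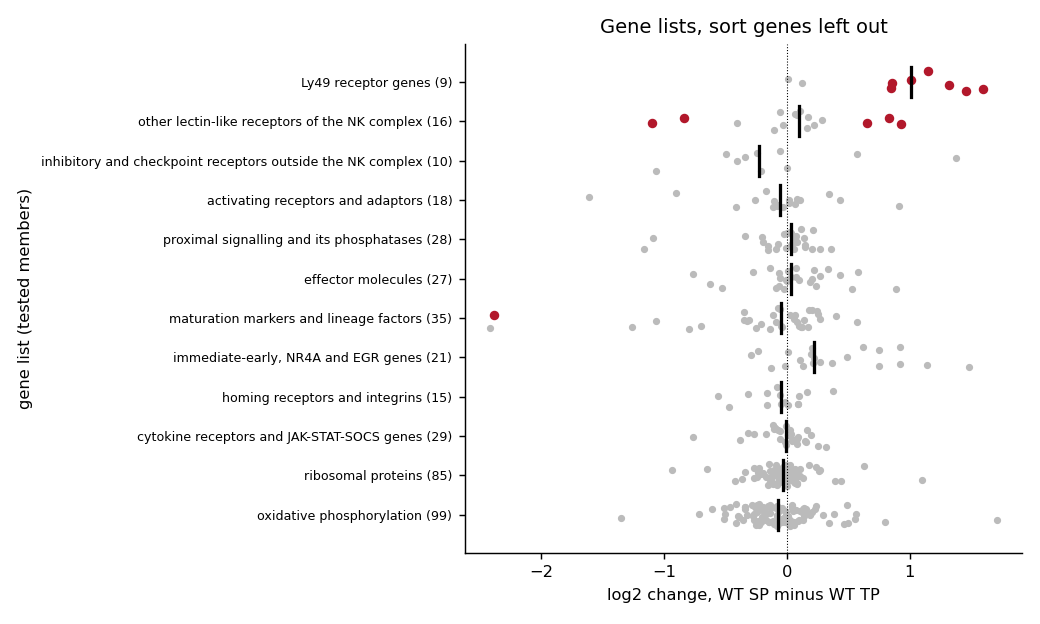
Differences of SP minus TP for each tested member of 12 gene lists, log2(TPM + 1) scale, with the sort genes left out; red points were called and black bars mark list medians. The Ly49 list stands at a median of 1.01, and the medians of the other lists lie between -0.22 and 0.22.

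TP and SP cells of KO mice share no library with the WT comparison. Both comparisons came from 1 fit that estimates each gene's spread from all 18 libraries, so their calls are not independent. In KO cells, 24 of 12018 genes were called (0.200%), 10 higher in SP (0.0832%) and 14 lower (0.116%). An unadjusted p under 0.05 was seen for 352. Of the 23 WT calls, 11 were called in KO too, all in the same direction, which is 47.8% of the WT calls and 45.8% of the KO calls. Outside the sort genes 9 were shared, among them Klra4, Klra10, Klra13-ps, Klrb1b, Klrc2, Klri2, Klrg1 and Cmah. All 23 WT calls had the same sign in KO cells, against 51.2% of all tested genes. For Klra3 and Klrc1 the sort, which was the same in KO mice, set this sign, so only the other 21 bear on it. Klra4 averaged 230.4 TPM in KO TP and 619 TPM in KO SP cells, a difference of 1.42 ± 0.13 beside 1.59 ± 0.13 in WT. Klrc2 differed by 0.92 in KO and 0.83 in WT, and Klra10 by 1.04 and 1.01. Of the 21 calls outside the sort genes, 17 had the larger absolute difference in WT, the genotype in which they were chosen.

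The difference between genotypes was tested directly, and none of the 23 WT calls was called in that test. It called 2 genes of 12018 (0.0166%), Ngp and S100a9, both at 0 in all WT TP and SP libraries. Both reached the mean of 1 TPM needed for testing only through the KO TP libraries. In this test, 530 of 12018 genes had an unadjusted p under 0.05. Of the 23, 7 had an unadjusted p under 0.05: Klra7, Klra13-ps, Cd55, Scimp, Ltb, Cdc42ep1 and Anxa8. The test reuses the WT libraries in which the 23 were called. Genes chosen there for a large difference lean toward a difference between genotypes, so the 7 are not separate evidence of one. In KO libraries, Klra7 was at 559, 606 and 571 TPM (TP) and 724, 764.5 and 722 TPM (SP), a change of 0.35 beside 0.86 in WT, and the genotypes differed by 0.51 ± 0.13 (limma adjusted p = 0.861). Cd55 stood at 32.9, 31.8 and 35.8 TPM (KO TP) and 46.3, 43.4 and 51.0 TPM (KO SP), close to the TP libraries of WT mice, and the genotypes differed by 0.77 ± 0.22 (limma adjusted p = 0.867). Scimp averaged 121 TPM in KO TP and 126 TPM in KO SP cells, and the genotypes differed by 0.50 ± 0.15 (limma adjusted p = 0.905). In KO TP cells neutrophil markers summed to 61.0 to 217 TPM and plasma cell markers to 401 to 684 TPM, against 0 to 5.85 and 196 to 224 TPM in KO SP cells, and their part in the KO values was not tested.

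**Figure D5:**
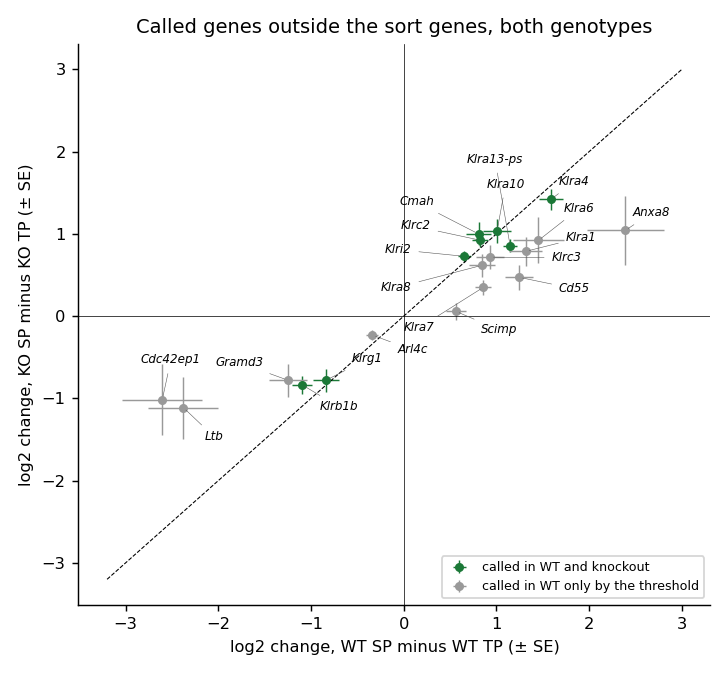
Differences of SP minus TP for 20 of the 21 genes called in WT outside the sort genes, WT on the x axis and KO on the y axis (log2 scale, ± SE), with a dashed line of equal difference. The 8 of them called in both genotypes are green, and all 20 lie in the quadrants of equal sign.

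TN cells of WT mice lack Ly49I as well, and their values are set beside those of SP cells, with which the comparison shares libraries. TN and SP cells differed at 46 of 12018 genes (0.383%), 22 higher in TN and 24 lower, and 1452 had an unadjusted p under 0.05. Some genes moved further from TP through SP to TN. Klra13-ps averaged 1309, 2901 and 4715 TPM in TP, SP and TN cells (TN minus SP 0.70, limma adjusted p = 0.000311), and Klra7 290, 526 and 808 TPM (0.61, limma adjusted p = 0.00361). Cmah averaged 39.0, 69.4 and 123 TPM (0.83, limma adjusted p = 0.011). Klrg1 averaged 437, 246 and 69.9 TPM (-1.79, limma adjusted p = 2.69e-06). Ltb turned back: it averaged 26.1, 4.37 and 18.4 TPM, and TN cells were higher than SP cells (1.92, limma adjusted p = 0.0345). For Klrc2 (969 TPM in TN), Klra8 (1566), Klra6 (43.8), Gramd3 (8.09) and Scimp (128), TN and SP cells did not differ past the threshold. Klra9, the gene the TN gate removes, averaged 82.4 TPM in TN cells.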

How the data were processed

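RNA was measured by RNA-seq of libraries made with an mRNA kit (KAPA), per the labels' protocols. The authors deposited gene-level TPM in a table of 18 libraries and 32940 genes, rounded to 2 decimals. STAR, RSEM and the build GRCm39 are named in the submitters' processing notes, without versions. RefSeq (GRCm38.p6) was used only for gene order and promoter sequences, and GENCODE M21 for shared words and gene types. Testing was limited to the 12018 genes whose mean over the 18 libraries reached 1 TPM. Limma 3.58.1 in R 4.3.3 was fitted to log2(TPM + 1) with 1 mean for each of 6 groups, no covariate, and variances moderated with an intensity trend. Tests were two-sided, with Benjamini-Hochberg adjustment over all tested genes. The test was tried on simulated data. Depth is unknown, and precision rests on 3 libraries a group.

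The members, comparisons, gene lists and tests were chosen with earlier results of these data known. Genes were named from the 23 calls, called members and the 3 smallest p of each list, the next 10 genes, sort and genotype genes, and the largest KO and between-genotype calls. Other list members and markers were named after their values were seen, and 1 called gene and 1 marker are counted but not reported here by name. Lists were described by counts and medians. Alternatives were another pseudocount (0.1), filter (none or 5 TPM), scaling or variance model, the compared groups alone, a replicate block, and each library left out. Replicate numbers were not taken as pairs, because the labels do not say that they mark the same mouse. In their deviations from group means, same-numbered WT TP and SP libraries correlated by 0.0176, 0.0434 and 0.031. WT TP and SP libraries of unlike number correlated by -0.046 to 0.0258. Whether the numbers mark pairs was not tested. Stimulated, tumour and other samples were not used here.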

Additional observations from a re-analysis of the deposited data

Results flagged for a closer look

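Ngp and S100a9, which encode granule and cytoplasmic proteins of neutrophils, had differences of SP minus TP that differed between WT and KO mice. Both were listed at 0 in all 6 WT libraries. They reached the mean of 1 TPM needed for testing only through the KO TP libraries, the group in which they are high. Their adjusted p values are therefore not separate from how they entered the test. In KO cells, Ngp was at 17.8, 19.4 and 39.96 TPM in TP and 0, 0.48 and 0 TPM in SP libraries, and the difference between genotypes was 4.46 ± 0.62 (limma adjusted p = 0.0202). S100a9 stood at 13.2, 52.3 and 95.1 TPM (KO TP) and 0, 0.31 and 0 TPM (KO SP), and the difference between genotypes was 5.25 ± 0.78 (limma adjusted p = 0.0233). The direction comes from the KO TP libraries alone, and the summed neutrophil markers there, 61.0 to 217 TPM, hold these 2 genes.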

How the results depend on the processing

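The alternatives for the WT comparison were 8 other settings and the 6 fits that leave out 1 library. The 23 calls became 8 with the compared groups alone (3 higher, 5 lower) and 17 to 24 without 1 library. They were 27 with a pseudocount of 0.1, with 13 higher and 14 lower in place of 14 and 9. All other settings gave 23 to 26. With replicate number as a block there were 26 (15 higher, 11 lower), 21 of them among the 23, and Arl4c and Scimp were lost. The numbers were not shown to pair libraries. The block gave 24 calls in KO and 40 for TN minus SP. KO calls were 24 at first, 41 with no filter on low values, 15 with the compared groups alone and 19 to 27 without 1 library. The 2 calls of the difference between genotypes became 0 with a pseudocount of 0.1 (554 unadjusted), 0 at 5 TPM (423) and 0 with the block (550). They became 5 with no filter, 4 with no variance trend, 6 with the compared groups alone, and 0 to 5 without 1 library. The 46 calls of TN minus SP became 2 with the compared groups alone and 24 to 54 without 1 library. Calls were gained too. Of 41 genes named by the rules above and not called in WT, 10 were called under at least 1 alternative. Eomes, Dtx1 and Kcnj8 were called with the block. Il7r was called with a pseudocount of 0.1, with no variance trend and with the compared groups alone. No called gene changed sign. Without 1 library, Itgam (-0.05) ran from -0.109 to 0.0189, above 0 without TP library 1 (0.0122) or SP library 3, and Klra9 (-0.05) from -0.134 to 0.0443, above 0 without TP library 1 (0.0175) or SP library 2. Rescaling moved the median of all genes by under 0.1. The causes were not tested.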

Other observations

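Some genes with large differences were not called. Of the genes that were not called, 39 differed by at least 3 on the log2 scale, 16 higher and 23 lower in SP cells, and 34 of them were at 0 in 2 or more of the 6 libraries. Short RNA genes made up 22 of the 39 (small nucleolar, small nuclear and microRNA genes by GENCODE M21), in libraries made with an mRNA kit, and limma called none of the 366 such genes tested (27 with an unadjusted p under 0.05). Snord34, a small nucleolar RNA gene, was at 0 in all 3 TP libraries and at 31.5, 47.2 and 44.8 TPM in SP libraries (limma adjusted p = 0.34). ND3, a mitochondrial gene, was at 51.6, 0 and 0 TPM in TP and 368, 527 and 199 TPM in SP libraries, a difference of 6.50 (limma adjusted p = 0.42). These genes were noted after their values were seen.

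Mki67, a marker of cycling cells also noted after its values were seen, was at 12.6, 12.4 and 11.5 TPM in TP and 4.63, 6.42 and 2.85 TPM in SP libraries and was not called (limma adjusted p = 0.229). Igkc, the kappa light chain, was at 25.4, 33.5 and 25.7 TPM in TP and 15.7, 6.44 and 2.48 TPM in SP libraries (limma adjusted p = 0.70). Igha, called in KO cells, was at 166, 70.5 and 169 TPM in their TP and 2.47, 2.02 and 0 TPM in their SP libraries, and at 0.15 TPM or below in all 6 WT libraries.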
